A study of Mus musculus with 12 samples.

Results

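The subject is a set of 36 mouse genes of fatty acid oxidation, ketone body metabolism and the response to PPARalpha, chosen by symbol. All 36 were found among the 12086 genes of the table, and all 36 passed the filter on low values. Liver RNA was sequenced from wild-type male C57BL/6 mice at postnatal day 84 (12 weeks), killed in a fasted state per the labels. In each group name the first letter gives what the dam ate and the second what her offspring ate after weaning, O for obesogenic and C for control. OO (3 libraries) had the obesogenic diet in dam and offspring, CO (2 libraries) had a control-fed dam and an obesogenic diet after weaning, OC (3 libraries) had an obesogenic-fed dam and control chow after weaning, and CC (3 libraries) had control chow throughout. The obesogenic diet held 10% simple carbohydrate and 20% lipid by weight and came with sweetened condensed milk (55% simple carbohydrate, 8% lipid and 8% protein), and control chow held 7% simple carbohydrate and 3% lipid. Offspring of either kind of dam were weaned onto their own diet at postnatal day 21, and litters had been set to 6 pups at day 3. The labels list 3 animals in CO, of which 2 have a library here.

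Hepatocytes oxidise fatty acids in mitochondria, which shorten the common chain lengths after the carnitine shuttle has carried them in, and in peroxisomes, which take very long and branched chains. Cytochrome P450 enzymes of the Cyp4a family attack the far end of the chain instead, which is called omega oxidation. In fasting, the acetyl-CoA made in liver mitochondria is turned into ketone bodies for other organs. PPARalpha is a nuclear receptor that binds fatty acids and, paired with the retinoid X receptor, raises the transcription of many of these genes in fasted liver.

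Values are scaled counts, close to CPM, with log2 differences taken on log2(value + 0.5). Recovered depth was 3976158 to 7969056 reads per library except in OO.0, which had 27837609, and no value of the 36 genes rested on fewer than 17 reads. Several libraries stood apart. Summed over 9 exocrine pancreas markers, OC.0 held 5320, CO.1 held 3265 and CC.1 held 781, against 6.91 to 107.8 in the other 8 libraries. Summed over 7 acute phase markers, CO.1 held 40398 and OC.1 held 26062, against 5963 to 10735 in the other 9. The 5 hepatocyte markers measured summed to 33690 to 40211 in OO, 38823 to 41196 in CO, 38537 to 41676 in OC and 44284 to 50115 in CC. In bulk liver RNA, fewer cells of a type and less RNA per cell cannot be told apart. The labels do not tell which animals were littermates, so p-values measure the spread between these libraries.

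Vnn1, the gene of the pantetheinase that recycles pantothenate from the breakdown of coenzyme A and a known PPARalpha target, was the 1 gene of the 36 that passed the test, and it was higher with the obesogenic offspring diet. Averaged over both kinds of dam its log2 difference was 1.27 (SE 0.24), a 2.41-fold rise, with an adjusted p of 0.0143 by limma with Benjamini-Hochberg adjustment over all genes. In that average 3.96% of all genes were called, 2.24% of all genes as higher. A further 10 of the 36 genes had an unadjusted p under 0.05 without passing, 9 higher and 1 lower. Over all 36 genes, 24 lay above 0 in this average and the median log2 difference was 0.14, beside 49.8% of all genes above 0 and a median of -0.000781. An unadjusted p under 0.05 was met by 19.4% of all genes.

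The 4 simple comparisons called 0 of the 36 genes by limma. In CO against CC, where 1.79% of all genes were called, 5 of the 36 had an unadjusted p under 0.05, 3 higher and 2 lower. In OO against OC, where 0.165% of all genes were called, 7 of the 36 had an unadjusted p under 0.05, all 7 higher. In OC against CC, where 0.0% of all genes were called, 1 of the 36 had an unadjusted p under 0.05 and was lower. In OO against CO, where 0.0414% of all genes were called, 2 of the 36 had an unadjusted p under 0.05 and both were higher. Across all genes an unadjusted p under 0.05 was met by 16.8% in CO against CC, 8.01% in OO against OC, 5.26% in OC against CC and 5.92% in OO against CO. On recovered reads, edgeR's quasi-likelihood test and voom also called 0 of the 36 in each of these comparisons. DESeq2 called 0 in CO against CC, OC against CC and OO against CO and 1, Vnn1, in OO against OC.

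**Figure D1:**
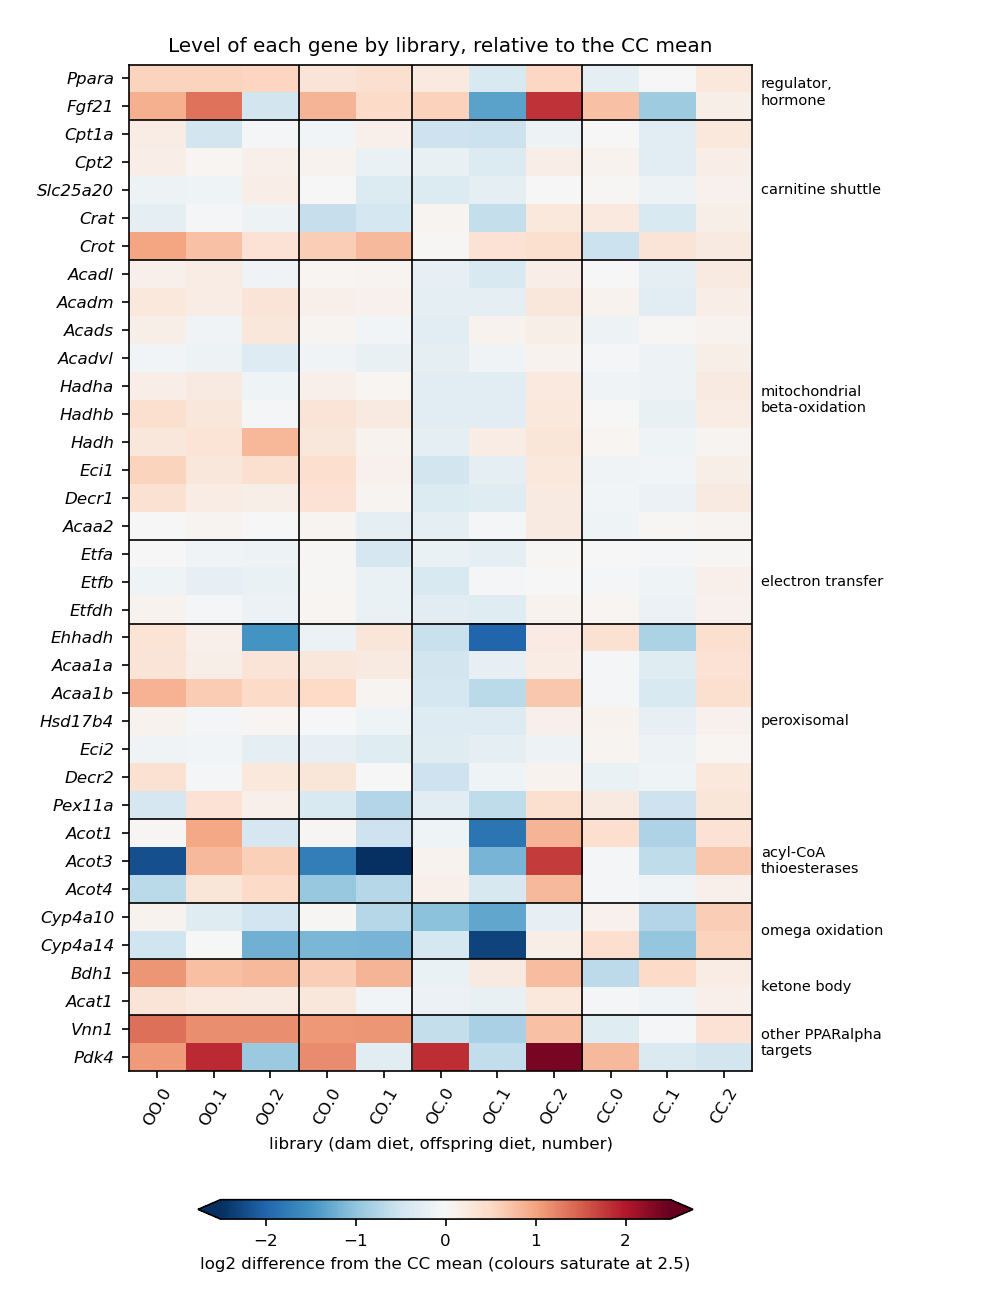
Log2 difference of each of the 36 genes from the CC mean in each of the 11 libraries, with genes in rows by role and libraries in columns by group. Vnn1 is red in all 5 OO and CO libraries, and OC.2 is the reddest OC column in every row, while OC.1 holds the darkest blue cells of Ehhadh, Cyp4a14 and Acot1.

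The heat map of all 36 genes shows 2 kinds of variation. The Vnn1 row is redder in every OO and CO library than in any OC or CC library. Bdh1 and Crot follow the offspring diet only in part, as OC.2 lay inside the OO range for both and OC.1 for Crot as well. Many rows change colour between the libraries of a group.

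Ppara (ENSMUSG00000022383), which encodes PPARalpha itself, was measured at 284, 283 and 282 in the OO libraries, 241 and 256 in CO, 230.3, 149 and 277 in OC and 163, 191 and 232 in CC. All 3 OO values lay above every value of the other groups, and the CO values lay above all CC values but inside the OC range. By limma Ppara differed by 0.42 (SE 0.20, adjusted p 0.648) on the log2 scale in OO against OC, 0.36 (SE 0.22, adjusted p 0.443) in CO against CC and 0.39 (SE 0.15, adjusted p 0.176) averaged over dams, and none of these passed the threshold. Values that do not overlap between groups were common in this table: 35.0% of all genes in CO against CC, 12.7% in OO against OC, 11.5% in OC against CC and 20.0% in OO against CO. Of the 36 genes the corresponding counts were 11, 3, 0 and 6.

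Fgf21, a hormone that the liver releases in fasting and that PPARalpha induces, stood at 15.3, 21.3 and 5.72 in the OO libraries, 14.8 and 11.4 in CO, 12.2, 2.89 and 29.2 in OC and 13.6, 4.11 and 8.98 in CC. The lowest and the highest value of all 11 libraries both came from OC, OC.1 and OC.2, and the 4 groups overlapped. Its log2 difference was 0.25 (SE 0.69, adjusted p 0.964) in OO against OC and 0.66 (SE 0.77, adjusted p 0.713) in CO against CC by limma.

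Among the 5 genes of the carnitine shuttle, Crot stood furthest from 0 with the offspring diet. Crot encodes carnitine octanoyltransferase, the peroxisomal enzyme that hands shortened chains on to mitochondria. It had 2876, 2409 and 1861 in the OO libraries, 2224 and 2562 in CO, 1475, 1863 and 1931 in OC and 1000.4, 1808 and 1698 in CC. Both CO values lay above all CC values, and among OO only OO.2 lay inside the OC range. The log2 difference was 0.72 (SE 0.28, adjusted p 0.227) in CO against CC, 0.43 (SE 0.25, adjusted p 0.749) in OO against OC and 0.57 (SE 0.19, adjusted p 0.119) averaged over dams by limma, and DESeq2 gave the average an adjusted p of 0.0273, within a range of 0.0273 to 0.405 over 23 alternatives.

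Cpt1a, the carnitine palmitoyltransferase of the outer mitochondrial membrane at which entry of long chains is controlled, had 1095, 700.1 and 932 in the OO libraries, 925 and 1048 in CO, 671, 666 and 890.2 in OC and 971, 804 and 1153 in CC. Neither offspring diet comparison set its values apart, with log2 differences of 0.28 (SE 0.20, adjusted p 0.803) in OO against OC and 0.03 (SE 0.22, adjusted p 0.967) in CO against CC by limma. Of the 4 simple comparisons the largest difference was between OC and CC, at -0.39 (SE 0.20, adjusted p 0.923), where the lowest CC value lay inside the OC range.

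Cpt2, the partner enzyme of the inner membrane, ranged over 218 to 236 in OO, 188 to 222 in CO, 167 to 236 in OC and 175 to 236 in CC. Slc25a20, the carrier that exchanges acylcarnitine for carnitine across that membrane, ranged over 196 to 238 in OO, 167 to 214 in CO, 168 to 214 in OC and 196 to 229 in CC. The groups overlapped for both genes. Crat, carnitine acetyltransferase, stood at 111 and 123 in CO, against 199, 128 and 184 in CC, without overlap, and its log2 difference of -0.51 (SE 0.24, adjusted p 0.307) did not pass limma's test. In OO, Crat was at 143, 162 and 154, above both CO values and inside the OC range of 109.9 to 201.

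For the 10 genes of mitochondrial beta-oxidation the median log2 difference was 0.26 in OO against OC, with 9 of 10 above 0, and 0.10 in CO against CC, with 7 of 10 above 0. Averaged over dams the median was 0.18, 8 of 10 lay above 0, 4 had an unadjusted p under 0.05 and 0 passed the adjusted threshold by limma. Over all genes tested the median was -0.000198 in OO against OC and -0.00592 in CO against CC. In the average over dams 49.8% of all genes lay above 0 and 19.4% had an unadjusted p under 0.05.

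Eci1, the mitochondrial enoyl-CoA isomerase needed for unsaturated chains, gave the smallest p of the 10 in OO against OC and in the average over dams, and Hadhb the smallest in CO against CC. It had 217, 179 and 193 in the OO libraries, 197 and 159 in CO, 107, 126 and 176 in OC and 139, 139.7 and 163 in CC. Every OO value lay above every OC value, and CO.1 lay inside the CC range. By limma the log2 difference was 0.55 (SE 0.17, adjusted p 0.384) in OO against OC, 0.27 (SE 0.19, adjusted p 0.508) in CO against CC and 0.41 (SE 0.13, adjusted p 0.103) averaged over dams. Without OC.2 the average was 0.51 with an adjusted p of 0.0310, the lowest of 23 alternatives, which ran up to 0.246.

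Hadh, the hydroxyacyl-CoA dehydrogenase for short and medium chains, had 371, 385 and 545 in the OO libraries, 369.9 and 324 in CO, 260.2, 345 and 376 in OC and 315, 282 and 319 in CC. OO.2 was the highest of all 11 libraries, both CO values lay above the CC values, and OO.0 at 371 lay inside the OC range. Between OO and OC the log2 difference was 0.40 (SE 0.17, adjusted p 0.592) by limma. Hadhb, which encodes the thiolase subunit of the trifunctional protein that handles long chains, was at 255 and 240.1 in CO, against 204, 179.5 and 232 in CC, without overlap, with a log2 difference of 0.28 (SE 0.19, adjusted p 0.49). Its partner subunit Hadha ranged over 595 to 629 in CO, inside the CC range of 525 to 671.

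Decr1, the mitochondrial dienoyl-CoA reductase, which like Eci1 acts on unsaturated chains, had a mean of 414 ± 36.6 (SD, n = 3) in OO, 409 ± 56.1 (SD, n = 2) in CO, 324 ± 75.7 (SD, n = 3) in OC and 353 ± 49.5 (SD, n = 3) in CC. Its log2 difference averaged over dams was 0.29 (SE 0.13, adjusted p 0.235) by limma. The 4 acyl-CoA dehydrogenases of the first step were Acadvl, Acadl, Acadm and Acads, for very long, long, medium and short chains. Their log2 differences in OO against OC were -0.10 for Acadvl, 0.21 for Acadl, 0.31 for Acadm and 0.12 for Acads. In CO against CC they were -0.13 for Acadvl, 0.05 for Acadl, 0.12 for Acadm and -0.0004 for Acads, each within 1 SE of 0. Acaa2, the mitochondrial thiolase of the last step, gave 0.05 in OO against OC and -0.09 in CO against CC.

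Electrons from the dehydrogenases pass to the electron transfer flavoprotein, whose subunits Etfa and Etfb encode, and on through its dehydrogenase Etfdh. These 3 genes lay near 0 with the offspring diet. In OO against OC their log2 differences were 0.05 for Etfa, -0.02 for Etfb and 0.13 for Etfdh, and in CO against CC they were -0.19 for Etfa, -0.06 for Etfb and -0.06 for Etfdh. The groups overlapped for all 3 in each of the 4 simple comparisons.

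**Figure D2:**
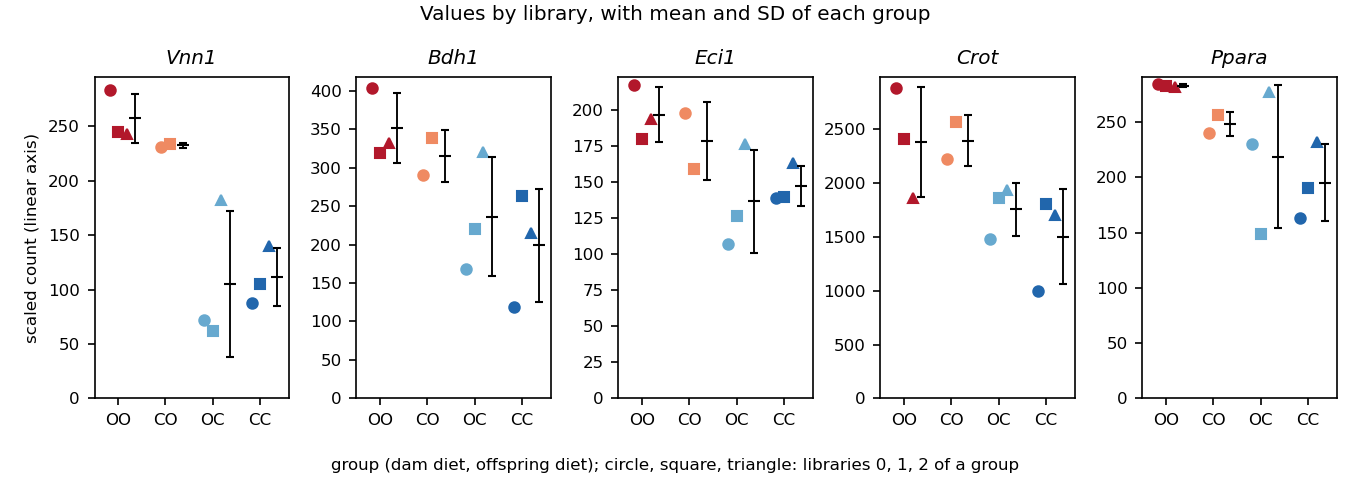
Scaled counts of the 5 genes with the smallest p for the offspring diet averaged over dams, by library, with each group's mean and SD beside its points. Vnn1 in the 5 OO and CO libraries stood at 231 to 283, above all 6 OC and CC libraries, of which OC.2 at 183 was the highest.

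The 7 peroxisomal genes all lay above 0 in OO against OC, with a median of 0.37, and split 4 above and 3 below in CO against CC, with a median of 0.08. None passed limma's adjusted threshold in either comparison, and an unadjusted p under 0.05 was met by 2 in OO against OC and 0 in CO against CC. Of all genes, 49.98% lay above 0 in OO against OC and 49.2% in CO against CC. An unadjusted p under 0.05 was met by 8.01% and 16.8% of all genes in the same order. The median in OO against OC was 0.14 without OC.1 and 0.21 without OC.0, and that in CO against CC was -0.16 without CC.1 and 0.27 without CC.2.

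Acaa1b, a peroxisomal thiolase of the last step that in mice responds to PPARalpha, had 2206, 1875 and 1677 in the OO libraries, 1694 and 1266 in CO, 896, 761 and 1923 in OC and 1189, 925 and 1598 in CC. OC.2 lay inside the OO range while OC.0 and OC.1 lay below every OO value. Its log2 difference was 0.80 (SE 0.32, adjusted p 0.553) in OO against OC by limma. Its close copy Acaa1a had 221, 195 and 222 in OO, against 129, 153 and 202 in OC, and a log2 difference of 0.42 (SE 0.18, adjusted p 0.592). The sources used here do not tell how reads of these near-identical genes were divided, so both values are uncertain.

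Ehhadh, the peroxisomal bifunctional enzyme and a classical PPARalpha target, varied most within groups of the 7. It had 2737, 2333 and 767 in the OO libraries, 1947 and 2642 in CO, 1454, 547 and 2484 in OC and 2816, 1249 and 2824 in CC. OO.2, OC.1 and CC.1 lay far below the other libraries of their own groups, so that every group but CO spanned more than 2-fold. For Ehhadh the log2 difference was 0.44 (SE 0.58, adjusted p 0.906) in OO against OC and 0.08 (SE 0.64, adjusted p 0.967) in CO against CC by limma.

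Decr2, the peroxisomal dienoyl-CoA reductase, had a log2 difference of 0.37 in OO against OC (SE 0.18) and 0.16 in CO against CC (SE 0.21). Eci2, the peroxisomal isomerase, was the least variable of all 36 genes within groups, at 301, 306 and 277 in the OO libraries, 281 and 262 in CO, 261, 277 and 296 in OC and 338, 296 and 335 in CC. Both CO values lay below all CC values, and the difference of -0.25 (SE 0.12, adjusted p 0.333) did not pass by limma. Hsd17b4, the other peroxisomal bifunctional enzyme, gave 0.21 in OO against OC and -0.05 in CO against CC. Pex11a, a membrane protein of peroxisome division induced by PPARalpha, stood at 114 and 89.5 in CO, against 173, 103 and 183 in CC, and the CC.1 value lay inside the CO range.

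Acyl-CoA thioesterases split activated fatty acids back into free acid and coenzyme A, Acot1 in the cytosol and Acot3 and Acot4 in peroxisomes. In CO against CC all 3 lay below 0, with a median of -0.83, while in OO against OC the median was -0.15. That median was 0.48 without OO.0, 0.27 without OC.2 and -0.43 without OC.1, so single libraries decide its sign. The 3 are related genes of 1 family, and the sources used here do not tell how reads that fit more than 1 of them were counted.

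Acot3 had the largest difference of the set, with 6.75, 57.2 and 49.8 in the OO libraries, 9.50 and 3.71 in CO, 34.9, 14.3 and 111 in OC and 31.4, 20.9 and 52.5 in CC. Both CO values lay below all CC values, yet OO.0 at 6.75 was as low as the CO libraries and OC.2 was more than 3 times any other OC library. The log2 difference was -2.35 (SE 0.91, adjusted p 0.223) in CO against CC, 2.09 (SE 0.91, adjusted p 0.833) in OO against CO and -0.49 (SE 0.82, adjusted p 0.93) in OO against OC by limma. Acot4 had 14.5, 29.3 and 32.8 in the OO libraries, 12.0 and 14.2 in CO, 25.8, 17.8 and 41.4 in OC and 22.7, 22.3 and 25.8 in CC, with -0.83 (SE 0.35, adjusted p 0.262) in CO against CC and 0.86 (SE 0.35, adjusted p 0.833) in OO against CO. Acot1 ranged over 59.0 to 154 in OO, 54.8 to 80.5 in CO, 21.9 to 143 in OC and 46.2 to 105 in CC, and its groups overlapped in all 4 simple comparisons.

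Omega oxidation was represented by Cyp4a10 and Cyp4a14, fatty acid omega-hydroxylases that PPARalpha agonists induce strongly in mouse liver. Their sequences are close to those of other Cyp4a genes, so reads may be shared and the values are uncertain. Cyp4a14 stood at 3235, 4574 and 2005 in the OO libraries, 2069 and 2052 in CO, 3378, 922 and 5104 in OC and 6113, 2355 and 6725 in CC. Both CO values lay below the lowest CC value, and the OO and OC ranges overlapped. By limma the log2 difference was -1.16 (SE 0.65, adjusted p 0.396) in CO against CC and 0.30 (SE 0.58, adjusted p 0.943) in OO against OC. Cyp4a10 stood at 2368, 1813 and 1605 in the OO libraries, 2274 and 1362 in CO, 1102, 909.7 and 1932 in OC and 2417, 1342 and 3421 in CC, and gave -0.34 (SE 0.41, adjusted p 0.72) in CO against CC and 0.61 (SE 0.37, adjusted p 0.755) in OO against OC.

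Against CC, the OC libraries gave -0.84 (SE 0.37, adjusted p 0.923) for Cyp4a10 and -0.87 (SE 0.58, adjusted p 0.923) for Cyp4a14. Cyp4a10 was the 1 gene of the 36 with an unadjusted p under 0.05 in that comparison, and its OC and CC ranges overlapped. OC.1, which held 26062 of summed acute phase values, was the lowest of all libraries for both genes, and the part of that state in the difference was not tested beyond leaving the library out. Without OC.1 the median of both genes was -0.38 in OC against CC, beside -0.85 with all libraries.

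Of the ketone body genes, Bdh1 encodes the dehydrogenase that interconverts acetoacetate and beta-hydroxybutyrate, and Acat1 the mitochondrial thiolase that forms acetoacetyl-CoA. Bdh1 was measured at 404, 319 and 332 in the OO libraries, 291 and 339 in CO, 168, 219.7 and 321 in OC and 119, 263 and 215 in CC. All 5 OO and CO values lay above every CC value, and OC.2 lay inside the OO range. The log2 difference was 0.61 (SE 0.28, adjusted p 0.619) in OO against OC, 0.73 (SE 0.31, adjusted p 0.266) in CO against CC and 0.67 (SE 0.21, adjusted p 0.101) averaged over dams by limma. DESeq2 gave that average an adjusted p of 0.0485, within a range of 0.0485 to 0.387 over 23 alternatives. Acat1 had a mean of 629 ± 23.4 (SD, n = 3) in OO, 569 ± 96.2 (SD, n = 2) in CO, 521 ± 93.1 (SD, n = 3) in OC and 526 ± 40.5 (SD, n = 3) in CC, with a log2 difference of 0.20 (SE 0.11, adjusted p 0.381) averaged over dams.

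**Figure D3:**
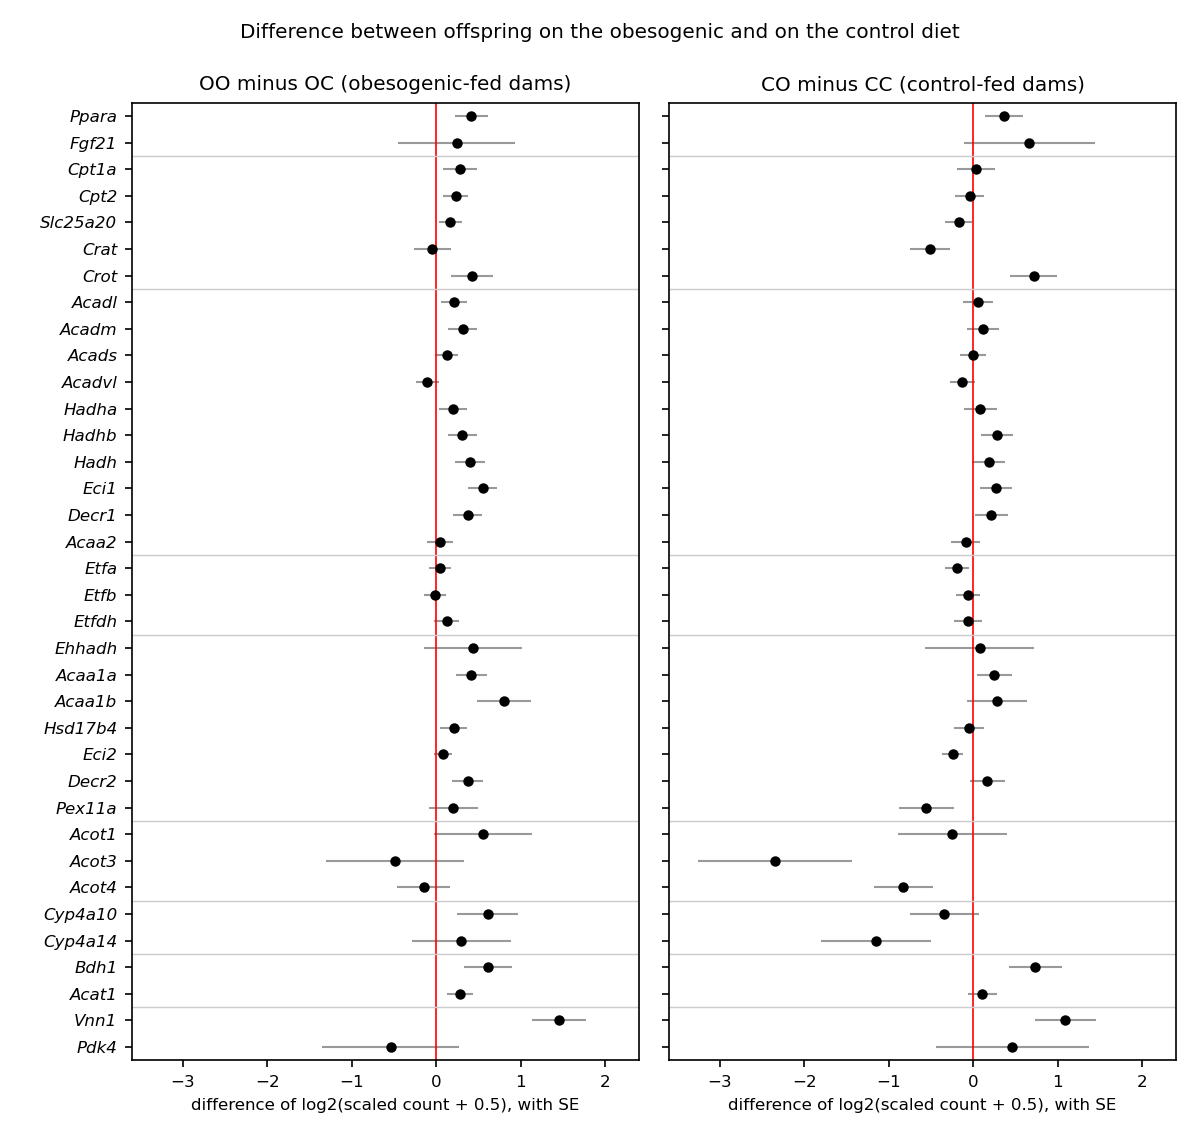
Log2 difference with its SE for each of the 36 genes, OO minus OC on the left and CO minus CC on the right, with grey lines between roles. On the left 30 of 36 genes lie above 0, and on the right 19 do, with Acot3, Acot4 and Cyp4a14 at -2.35, -0.83 and -1.16.

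Vnn1 (ENSMUSG00000037440) was measured at 283, 245 and 243 in the OO libraries, 231 and 234 in CO, 71.7, 61.9 and 183 in OC and 88.0, 105 and 140.4 in CC. All 5 libraries from offspring on the obesogenic diet lay above all 6 from offspring on control chow. Groups did not overlap for 35.0% of all genes in CO against CC and 12.7% in OO against OC. The share of all genes with all 5 libraries apart from all 6 was not counted. Markers of bile duct cells were apart in the same way, with the 3 measured of 5, Epcam, Spp1 and Sox9, summing to 42.1 to 72.7 in OO, 49.7 to 59.2 in CO, 29.6 to 41.7 in OC and 25.7 to 41.5 in CC, none of them at 0 in every library. Between CO and CC, 5 stellate cell markers, at 423 to 442 in CO and 347 to 361 in CC, were apart as well. So were 5 endothelial markers, at 339 to 353 in CO and 296 to 336 in CC. The 2 measured of 5 neutrophil markers, at 7.00 to 24.9 in CO and 1.11 to 3.33 in CC, were also apart, as were the hepatocyte and acute phase sums. The part of these markers in the Vnn1 difference was not tested. The mean was 257 ± 22.6 (SD, n = 3) in OO, 233 ± 2.38 (SD, n = 2) in CO, 105 ± 67.1 (SD, n = 3) in OC and 111 ± 26.7 (SD, n = 3) in CC. The log2 difference was 1.46 (SE 0.32, adjusted p 0.167) in OO against OC and 1.09 (SE 0.36, adjusted p 0.155) in CO against CC by limma, so that the call rests on the average of both. Its interaction, the OO against OC difference minus the CO against CC difference, was 0.37 (SE 0.48, adjusted p 0.964).

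Within OC, OC.2 was 183, more than 2 times each of the other OC libraries. Without OC.2 the Vnn1 difference in OO against OC was 1.94 with an adjusted p of 0.000876, and over 24 alternatives that adjusted p ran from 0.000876 to 0.568. The average over dams was called in 20 of 23 alternatives, among them edgeR (adjusted p 0.0261) and DESeq2 (0.000122), with log2 differences between 1.12 and 1.51 and adjusted p between 0.000122 and 0.113. It missed the threshold at 1.27 (adjusted p 0.0521) without CO.1, which leaves CO with 1 library, at 1.17 (0.113) without OC.0 and CO.1, and at 1.12 (0.0654) without OC.1 and CO.1. OC.0, OC.1 and CO.1 are the libraries that hold most pancreas or acute phase transcripts.

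Pdk4, a kinase that shuts off pyruvate dehydrogenase in fasting, varied as widely as Acot3. It had 38.1, 67.2 and 9.15 in the OO libraries, 41.5 and 14.8 in CO, 66.3, 11.6 and 95.0 in OC and 32.0, 13.8 and 12.99 in CC. OC.2 was the highest and OO.2 the lowest of all 11 libraries, and the groups overlapped. Its largest difference among the simple comparisons was 1.204 (SE 0.81, adjusted p 0.923) in OC against CC by limma.

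Set side by side, the roles differed in their medians. In OO against OC the median log2 difference was 0.23 for the carnitine shuttle, 0.26 for mitochondrial beta-oxidation, 0.37 for peroxisomal genes, 0.46 for omega oxidation and 0.45 for ketone body genes. In CO against CC it was -0.04 for the carnitine shuttle, 0.10 for mitochondrial beta-oxidation, 0.08 for peroxisomal genes, -0.75 for omega oxidation and 0.42 for ketone body genes. The ketone body median lay above 0 in both comparisons. On leaving out any 1 library it was 0.31 to 0.64 in OO against OC and 0.25 to 0.52 in CO against CC. It covers 2 genes, of which Bdh1 gave 0.73 (SE 0.31) and Acat1 0.11 (SE 0.17) in CO against CC. The omega oxidation median was below 0 in CO against CC on leaving out any 1 library, but in OO against OC it was -0.02 without OC.1, so that 1 library decides its sign. The CO against CC signs for the carnitine shuttle and peroxisomal genes also turned with single libraries, with medians of -0.17 to 0.04 and -0.16 to 0.27 on leaving out 1 library. Over all 36 genes, 30 lay above 0 in OO against OC with a median of 0.26, beside 49.98% of all genes. In CO against CC 19 of 36 lay above 0 with a median of 0.04, beside 49.2% of all genes, and that median ran from -0.07 without CO.0 to 0.16 without CC.2.

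Whether the offspring diet acted differently by dam was read from the interaction. Limma called 0 of the 36 genes, 0 had an unadjusted p under 0.05, and edgeR, DESeq2 and voom called 0, while 0.0331% of all genes were called and 4.56% had an unadjusted p under 0.05. Its 5 smallest p-values belonged to Eci2 at 0.33 (SE 0.16, adjusted p 0.936), Pex11a at 0.76, Cyp4a10 at 0.95, Cyp4a14 at 1.46 and Slc25a20 at 0.34, each with an adjusted p of 0.936. In all, 32 of 36 genes lay above 0, beside 51.4% of all genes, with a median of 0.21. That count was 19 without OC.0 and CO.1, and the median for mitochondrial beta-oxidation was then -0.05, beside 0.15 with all libraries.

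For the maternal diet, OC against CC gave 8 of 36 genes above 0 and a median of -0.13, beside 50.7% of all genes above 0 and a median of 0.00333. The count was 17 without CC.2, 15 without OC.0, 16 without OC.1 and 3 without OC.2, so that single libraries decide it. OO against CO gave 29 of 36 above 0 and a median of 0.12, beside 51.6% of all genes, and 18 of 36 without CO.1. The average maternal diet effect called 0 of the 36 genes by limma, edgeR, DESeq2 and voom, with 0.0331% of all genes called by limma. In that average 18 of 36 lay above 0, and 1 gene, Acot4 at 0.52 (SE 0.23, adjusted p 0.789), had an unadjusted p under 0.05. The next were Acot3 at 1.16, Cpt1a at -0.27, Hadh at 0.19 and Ehhadh at -0.60, with adjusted p between 0.801 and 0.841. Each library enters several of these comparisons, so they are not independent of each other.

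**Figure D4:**
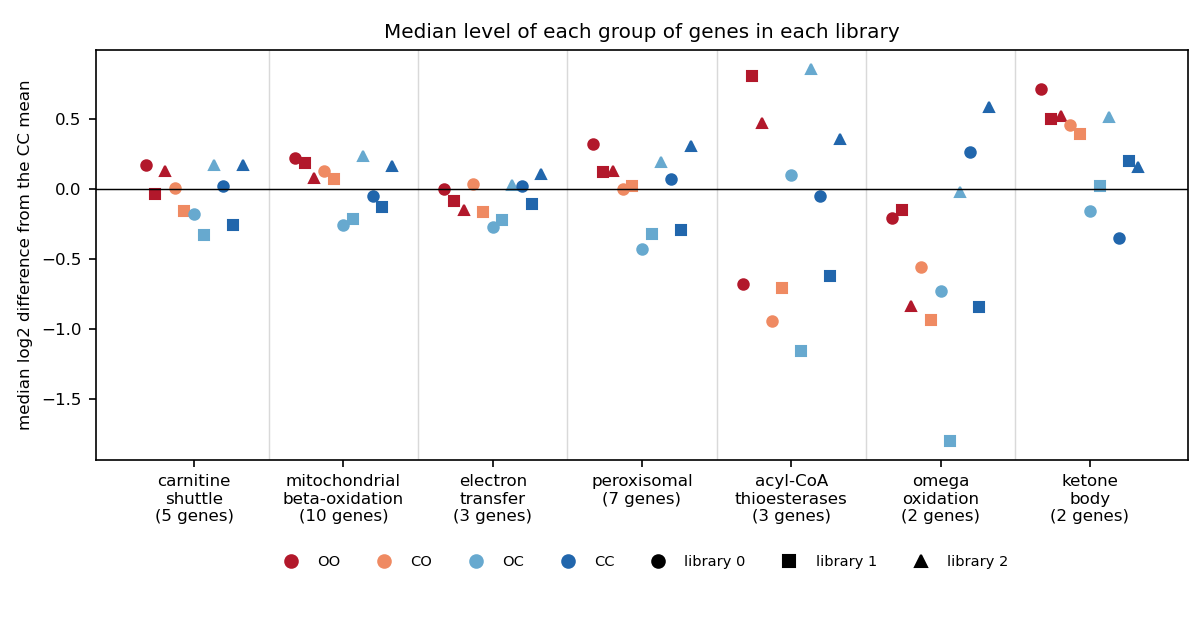
Median log2 difference from the CC mean over the genes of each role, by library, with colours for groups and shapes for library numbers within a group. Regulator and hormone genes and the other PPARalpha targets are not plotted. OC.2 lies above OC.0 and OC.1 in all 7 roles plotted, and OC.1 reaches -1.16 for thioesterases and -1.80 for omega oxidation.

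In every group 1 library was the highest for most of the set, by the narrowest margin in OO. OC.2 was the highest OC library for 36 of the 36 genes, against 30.0% of all genes, and OC.1 was the lowest for 21 and OC.0 for 15. In CC, CC.2 was the highest for 29 of 36 and CC.1 the lowest for 27, against 29.5% and 36.0% of all genes. In CO, CO.0 was the higher for 27 of 36, against 49.2% of all genes. In OO, OO.0 was the highest for 19, OO.1 for 11 and OO.2 for 6, against 26.5%, 35.2% and 38.3% of all genes, and OO.2 was the lowest for 20, against 35.4%. OC.1 was the OC library with high acute phase values and OC.0 the OC library with high pancreas values, while OC.2 held 5963 and 84.4 of these sums, and in CC the low CC.1 held 781 of pancreas values. The part of these states in the order of libraries was not tested.

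By role, the median for omega oxidation was -0.03 in OC.2, -0.73 in OC.0 and -1.80 in OC.1 relative to the CC mean, and for thioesterases it was 0.85, 0.10 and -1.16 in the same libraries. For mitochondrial beta-oxidation it was 0.24, -0.26 and -0.22, a smaller span in the same order of OC.2 above the other two. All 3 OO libraries and both CO libraries lay above 0 for mitochondrial beta-oxidation, at 0.22, 0.18 and 0.07 in OO and 0.12 and 0.07 in CO. OC.2 at 0.24 and CC.2 at 0.16 lay above 0 as well, so that the diets overlapped. For ketone body genes the OO and CO libraries also lay above 0, at 0.71, 0.49 and 0.52 in OO and 0.45 and 0.39 in CO. There OC.2 stood at 0.51, CC.1 at 0.19 and CC.2 at 0.15, so that the diets overlapped again. The plot of role medians by library shows both patterns.

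The spread between libraries of the same group differed by role. The pooled within-group SD on the log2 scale had a median of 0.22 over all genes and 0.24 over the 36. It was 0.14 for electron transfer, 0.21 for mitochondrial beta-oxidation, 0.25 for peroxisomal genes, 0.71 for omega oxidation and 0.90 for thioesterases. Single genes reached 1.28 for Acot3, 1.27 for Pdk4 and 1.08 for Fgf21, above at least 99.2% of all genes, and 0.90 for Acot1, 0.88 for Ehhadh and 0.88 for Cyp4a14. Eci2 had the smallest, 0.09, below all but 2.90% of genes.

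**Figure D5:**
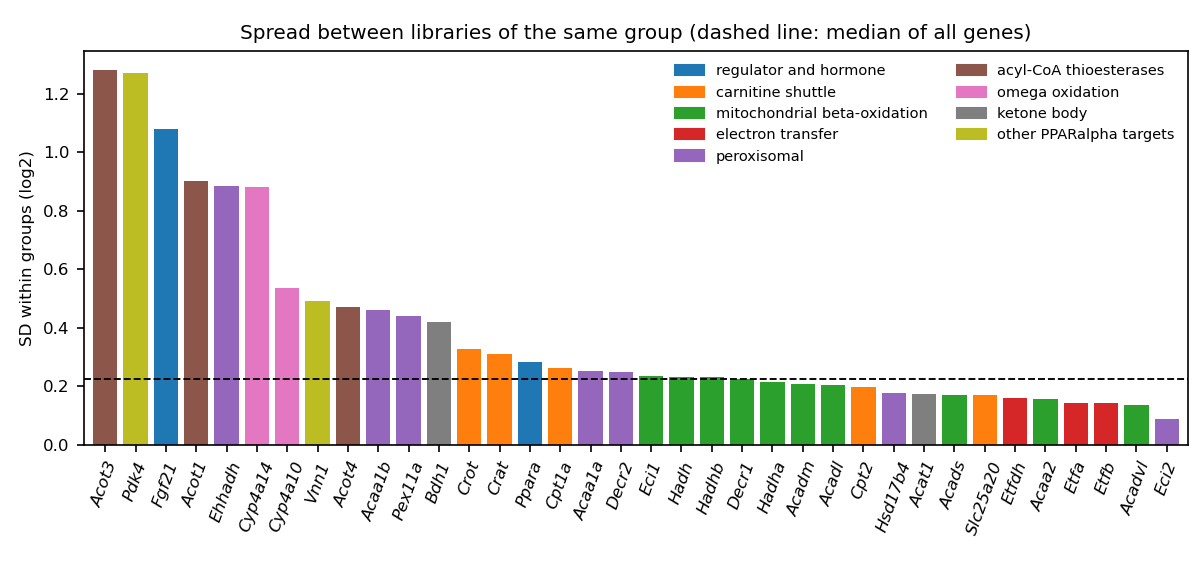
Pooled SD within groups of log2(value + 0.5) for each of the 36 genes, in falling order, coloured by role, with the median over all genes as a dashed line at 0.22. Acot3, Pdk4 and Fgf21 lead at over 1, and all 10 mitochondrial beta-oxidation genes lie between 0.14 and 0.23.

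PPARalpha binds DNA with its partner at a direct repeat of AGGTCA with 1 base between the copies, so the promoters of the set were read for it on both strands. RefSeq promoter windows (build GRCm38.p6, 250 bases before to 50 after each start) were given for 28 of the 36 genes, 30 windows in all. They were not given for Vnn1, Cyp4a10, Cyp4a14, Decr1, Hsd17b4, Crat, Acat1 and Acaa2. An exact copy was in 0 of 30 windows, beside 0.04% of all 32851 windows, and a copy with up to 2 mismatches outside the spacer was in 3 of 30 (10.0%), beside 3.86% of all windows. The 3 are printed because they are the only stretches in these windows that come near the repeat, 5′ to 3′ on the gene's strand, with the match in capitals.
Acot4: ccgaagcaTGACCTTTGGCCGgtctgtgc
Etfa: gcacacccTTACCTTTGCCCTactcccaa
Slc25a20: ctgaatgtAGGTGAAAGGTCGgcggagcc
The Acot4 match is on the opposite strand and starts 13 bases before 1 of its annotated starts (chr12:84038358-84038386), and the Etfa match, also on the opposite strand, starts 77 bases before the start (chr9:55512300-55512328, gene on the minus strand). The Slc25a20 match lies on the gene's own strand, 6 bases after the start (chr9:108662134-108662162). Each holds 2 mismatches. Between CO and CC the log2 difference was -0.83 for Acot4, -0.19 for Etfa and -0.17 for Slc25a20, each short of limma's adjusted threshold. Between OO and OC it was -0.15 for Acot4, 0.05 for Etfa and 0.17 for Slc25a20, likewise short of it. A match is only a description of the letters, and a window without one tells nothing about the factor.

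Of 48 other genes of the same pathways, all measured, limma called 1 in CO against CC, beside 1.79% of all genes. In the average over dams it called 4, 1 higher and 3 lower, beside 3.96% of all genes. An unadjusted p under 0.05 was met by 10 (20.8%) and 17 (35.4%) of the 48 there, beside 16.8% and 19.4% of all genes. In the 5 remaining comparisons limma called 0. There 12 (OO against OC), 1 (OC against CC), 1 (OO against CO), 2 (maternal average) and 1 (interaction) had an unadjusted p under 0.05. The shares over all genes were 8.01%, 5.26%, 5.92%, 6.13% and 4.56% in the same order. In those 5, edgeR and voom on recovered reads also called 0 of the 48, and DESeq2 called 1, Nudt7 in OO against OC. Nudt7, which encodes a peroxisomal hydrolase of coenzyme A, had 546, 396 and 387 in the OO libraries, 777 and 567 in CO, 96.8, 285 and 184 in OC and 124, 287 and 232 in CC. All 5 OO and CO libraries lay above all 6 OC and CC libraries, as for Vnn1, and the share of all genes apart in this way was not counted. Averaged over dams, Nudt7 rose by 1.53 on the log2 scale (SE 0.28, limma adjusted p 0.0123), and it was called in all 23 alternatives.

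Nudt19, another peroxisomal coenzyme A hydrolase, was lower with the offspring diet, at 30.0, 26.3 and 30.9 in the OO libraries, 24.3 and 23.1 in CO, 40.1, 30.0 and 34.9 in OC and 51.0, 37.8 and 37.2 in CC. Both CO values lay below all CC values, and OO.2 lay above OC.1. It fell by 0.80 on the log2 scale in CO against CC (limma adjusted p 0.0422) and by 0.53 averaged over dams (adjusted p 0.0254), a call kept in 14 of 24 and 15 of 23 alternatives. In OO against OC the difference was -0.26 (SE 0.15, adjusted p 0.739), and Nudt19 was the 1 gene of the 48 with an unadjusted p under 0.05 in the interaction, at 0.54 (SE 0.22, adjusted p 0.936).

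Hacl1, a peroxisomal lyase of alpha-oxidation of branched chains, had 381, 427 and 364 in the OO libraries, 461 and 346 in CO, 442, 634 and 609.95 in OC and 639.9, 536 and 672 in CC, with all OO values below all OC values and both CO values below all CC values. Averaged over dams it fell by 0.56 (limma adjusted p 0.033, called in 14 of 23 alternatives). Cyp4f13, a cytochrome P450 of a family that includes omega-hydroxylases, had 47.6, 38.7 and 41.0 in OO, against 56.3, 57.6 and 57.3 in OC, and 50.7 and 46.3 in CO, against 54.4, 60.4 and 58.0 in CC. It fell by 0.34 averaged over dams (limma adjusted p 0.0388, called in 11 of 23 alternatives). These 48 genes were listed with earlier results of the data known.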

How the data were processed

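The table of the series holds liver RNA sequencing values for 12086 genes in 11 libraries, 3 each of OO, OC and CC and 2 of CO, while the labels list 12 samples. Column names give each library's group but not its labelled sample, so library numbers pair nothing. The deposited values, named CPM per the file headers, are a signal that the values themselves show to be estimated counts of each gene over a constant of its library. Between 95.73% and 97.34% of values in a library came out whole (tolerance 0.01) once divided by what 1 read is worth there, which gave the recovered reads. Alignment used Bowtie 1.2.3 and mm8, per the submitters' processing notes. The sources used here do not give the counter, annotation or strand setting. Whole reads were recovered in every library for 34 of the 36 genes and not for Acadvl and Acaa1a.

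Limma 3.58.1 (R 4.3.3) was fitted on log2(value + 0.5) to all 11 libraries with 1 mean per group and an intensity trend (7 residual and 4.66 prior degrees of freedom), for genes at 1 or more in at least 3 libraries. A gene was called at a Benjamini-Hochberg adjusted p under 0.05 over 12086 genes. Folds on this scale understate changes of low genes. Averages are the mean of the 2 offspring (OO minus OC, CO minus CC) or the 2 maternal contrasts, and the interaction is their difference. Alternatives were edgeR 4.0.16, DESeq2 1.42.0 and voom on recovered reads, pseudocounts of 0.1 and 2, a minimum value of 5 or none, median-of-ratios and quantile scaling, a robust variance, fits of only the groups compared, a threshold of 0.1, and leaving out each library or the pairs OC.0 with CO.1 and OC.1 with CO.1. The scripts were tested on simulated data.

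The genes, their roles, the other lists and the pair fits were chosen with earlier results of these data known. Full values were given for genes past the threshold or, where fewer than 5 passed, for the 5 with the smallest p per comparison, and for up to 4 other pathway genes. The analysis had been laid out for CPM in 12 samples, and its log-scale test was kept for the values found. Some genes of these pathways are not reported here.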

Additional observations from a re-analysis of the deposited data

Results flagged for a closer look

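Hsd17b4, the peroxisomal bifunctional enzyme, was singled out because its libraries on the obesogenic offspring diet lay above the control-diet mean for 1 kind of dam and below it for the other. Its values were 894, 812 and 863 in OO, against 665, 668 and 913 in OC, and 835 and 778 in CO, against 895, 725 and 903 in CC. All 3 OO libraries lay above the OC mean of 748 and both CO libraries lay below the CC mean of 841. The difference between the 2 effects was 0.26 on the log2 scale, and limma's test of it gave an adjusted p of 0.94. OC.2 lay above every OO library and CC.1 below both CO libraries, so the ranges overlapped in both comparisons.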

How the results depend on the processing

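The number of the 36 genes called by limma stayed at 0 in OC against CC, OO against CO, the maternal average and the interaction under every alternative run. In CO against CC it ranged from 0 to 1 on leaving out single libraries, with 1 (Vnn1) without OC.2. OC.2 is in neither CO nor CC, so leaving it out moved the shared estimate of spread and not the CO against CC difference. In OO against OC it was 1 (Vnn1) by DESeq2 and ranged from 0 to 1 on leaving out single libraries, again with 1 without OC.2. In the offspring average, where 1 was called, DESeq2 called 3 (Bdh1, Crot and Vnn1), leaving out single libraries gave 0 to 2 (0 without CO.1, 2 without OC.2), and 0 were called without OC.0 and CO.1 and without OC.1 and CO.1. Leaving out both libraries or CO.1 alone leaves CO with 1 library, which is assumed to vary like the others, so fewer libraries enter the test. The cause of the remaining moves in OO against OC and in the offspring average was not tested. No called value changed sign in the alternatives run. The OO against OC median of all 36 genes, 0.26, ran from 0.13 without OC.1 to 0.46 without OC.2. The counts above 0 ran from 18 to 33 in OO against CO and from 10 to 23 in the maternal average over the alternatives. No paired analysis was possible, because the labels do not tell littermates and the columns carry no number shared with the labels. Depth was lowest in OO.1 at 3976158 reads, and 2 CO libraries set the precision of every comparison that uses CO.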
